A study of Saccharomyces cerevisiae with 64 samples.

Results

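The 8 genes described here, BUD23, ARE1, CYS3, ARG4, DED81, HIS4, CCT6 and ERG25, lie at or beside known hotspots of meiotic recombination in budding yeast. They were chosen by name from the 6002 protein-coding genes of the nuclear chromosomes, with earlier results of these data known. A gene was called occupied in a library when the midpoint of a peak fell in its coding region (a coding peak) or in the 500 bp before its coding start (a promoter peak). The study mapped Spp1 and Bre2, both subunits of the Set1 complex, by chromatin immunoprecipitation and sequencing in SK1 diploids. Samples came from cultures in pre-sporulation medium (SPS) and from set times after the move to sporulation medium (SPM), in which starved diploids enter meiosis. Peak lists of 62 libraries were used, 20 from strains with a myc tag, 24 from strains with altered histone H3 and 18 from a competition experiment.

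Every strain was Mata/alpha and carried ura3/ura3 and the heterozygous markers HIS4/his4 and leu2/LEU2, so 1 of the 2 copies of HIS4, a gene of the set, was mutant throughout. The myc strains were also trp1/trp1 and homozygous for BRE2-13xmyc-NatMX4, SPP1-13xmyc-KanMX4, spp1PHDΔ-13xmyc-KanMX4 (the histone-binding PHD finger deleted) or spp1CXXCΔ-13xmyc-NatMX4 (the CXXC motif deleted), each with 1 library from SPS and 1 from each of 0, 2, 4 and 6 h after the move to SPM. The H3 strains were homozygous for SPP1-3xHA::KanMX4, ho::LYS2, lys2 and trp1-1, carried hht1Δ::HphMX together with hht2Δ::KanMX4 (the second copy of the latter locus is labelled hht1Δ::HphMX), and drew H3 from a centromeric plasmid, pCEN-ARS, with HHF2, TRP1 and either HHT2, HHT2K4R or HHT2R2A, with 2 libraries of each at 0, 2, 4 and 6 h. All 3 H3 strains, the wild-type control included, thus lived on plasmid-borne H3. The Spp1-GFP libraries of the competition experiment came from a strain with one SPP1 copy as SPP1-13xmyc-KanMX4 and the other as NatMX4-pCUP1-1-yGFP-SPP1, in which the copper-responsive CUP1 promoter drives the GFP copy. The Spp1-myc libraries of that experiment carry a label homozygous for the myc copy, and both were sampled from 4.5 to 6.5 h. Whether replicates are separate cultures is not stated in the labels, and each p-value here reflects only how far these libraries vary, which may be technical. HHT1, deleted in the H3 strains, had a peak in 0 of 24 H3-strain libraries and in 18 of 20 myc-strain libraries.

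Meiotic recombination starts with DNA breaks made by Spo11, and in budding yeast most breaks form in the open chromatin of gene promoters. Nucleosomes beside those promoters carry trimethylated lysine 4 of histone H3, placed by the Set1 complex. Spp1 binds this mark through its PHD finger and binds Mer2 on the chromosome axis, which brings break sites in chromatin loops to the break machinery. Bre2 is a subunit of the same complex.

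CCT6, which encodes a subunit of the cytosolic chaperonin, was occupied in 44 of 62 libraries and stood highest in the set. ERG25, encoding the sterol methyl oxidase of ergosterol synthesis, followed with 41 libraries and ARG4, encoding argininosuccinate lyase, with 39. CYS3, encoding cystathionine gamma-lyase, was occupied in 35 libraries, and DED81, the cytosolic asparaginyl-tRNA synthetase gene, in 18. HIS4, a gene of histidine synthesis with several enzyme activities, was occupied in 14 libraries, BUD23, encoding a methyltransferase of ribosomal RNA, in 5, and ARE1, encoding a sterol acyltransferase, in 0. Neighbours in this order often differed library by library. CCT6 and ERG25 shared 36 libraries, with 8 in which CCT6 alone and 5 in which ERG25 alone was occupied, and ARG4 and CYS3 shared 24, with 15 and 11 apart.

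The median of the 8 genes was 26.5 libraries, beside 3 libraries over all 6002 genes. At least 31 of the 62 lists held a peak for 4 of the 8 genes and for 7.85% of all genes. Because the genes were chosen with earlier results of these data known, these values describe the set and do not test hotspots. Of 5 other genes at known hotspots, GAT1 was occupied in 31 libraries, LEU2 in 35, HIS2 in 9, THR4 in 7 and IMG1 in 5, a median of 9. Hotspot genes therefore ranged from CCT6, 75th among all genes by this count, to ARE1, which was among the 1937 genes with no peak in any library.

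**Figure D1:**
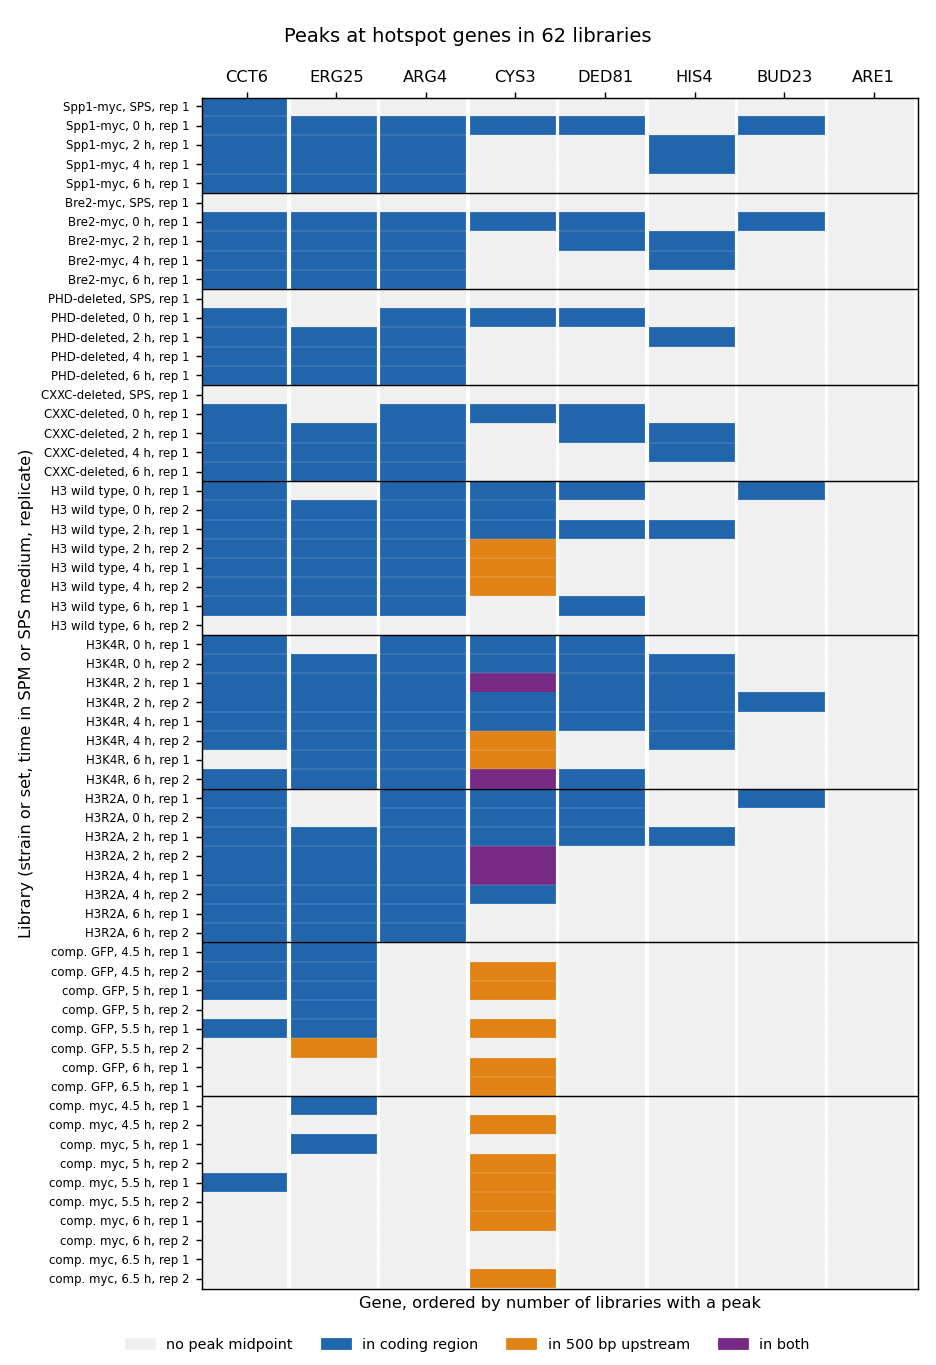
Peaks at the 8 genes (columns) in each of 62 libraries (rows, by strain or set, medium, time and replicate). Blue marks a midpoint in the coding region, orange in the 500 bp upstream, purple both; orange and purple appear in the CYS3 column, and in 1 library for ERG25.

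The lists differed in length, from 642 to 2119 peaks in the myc and H3 strains and from 87 to 705 in the competition libraries, and depth is unknown because no list gives read counts. The share of all genes occupied ran from 9.96% to 34.0% in the myc strains, from 7.75% to 32.8% in the H3 strains and from 0.500% to 10.7% in the competition libraries. The shortest H3-strain list, of the wild-type strain at 6 h in replicate 2, held 642 peaks and none at any of the 8 genes. In a culture, fewer cells with the protein at a gene and less protein per cell cannot be told apart.

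Peaks at these genes lay in coding regions far more often than in promoters. Of 218 assignments of a peak to one of the 8 genes, 197 were coding and 21 promoter. This is a promoter share of 9.63% (Wilson 95% interval 6.39 to 14.3), and the 14.0% over all genes lies inside the interval. Intervals cover counting error over peaks only, and peaks of different libraries at 1 gene are not independent. Of the promoter peaks 20 belonged to CYS3 and 1 to ERG25, and without CYS3 the share was 0.565% (1 of 177).

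The promoter share differed between the sets of libraries. It was 0 of 75 (0%, 0 to 4.87) in the myc strains, in which all genes together had 16.1%. That 16.1% includes the SPS libraries, which held only 2 of the 75 peaks. At the SPM times of these strains all genes had 8.46% at 0 h, 10.4% at 2 h, 14.4% at 4 h and 12.9% at 6 h. In the H3 strains the share of the 8 genes was 9 of 119 (7.56%, 4.03 to 13.8), beside 12.0% for all genes. In the competition libraries it was 12 of 24 (50%, 31.4 to 68.6), beside 17.3% for all genes. Of these 12 peaks, 11 were at CYS3. All 11 had their midpoint inside the coding region of DEP1, the gene upstream of CYS3, and also count as coding peaks of DEP1. In SPS, in which 38.9% of all assignments were promoter peaks, the 8 genes held 2 peaks, both coding and both in CCT6. Over time in the H3 strains the share went from 0 of 31 at 0 h to 3 of 37 at 2 h, 4 of 30 at 4 h and 2 of 21 at 6 h, and every one of these 9 promoter peaks was at CYS3.

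**Figure D2:**
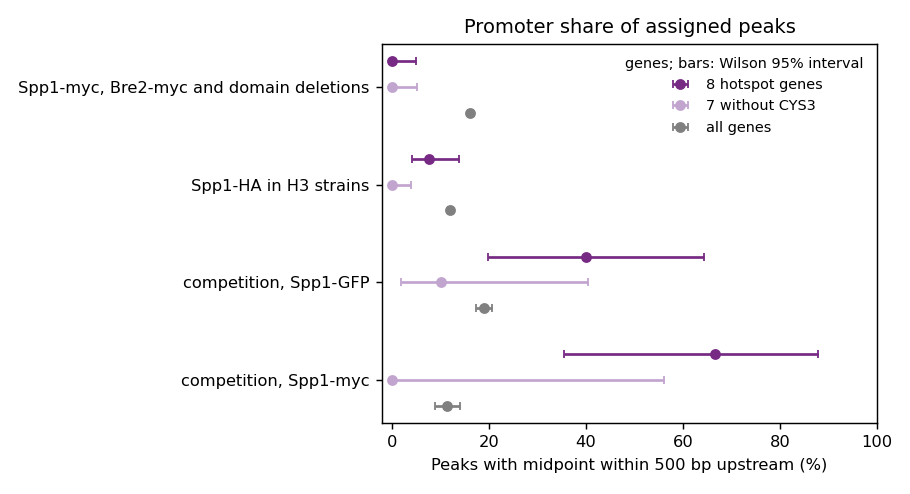
Percent of assigned peaks whose midpoint lay in the 500 bp before a coding start (x axis) for the 8 hotspot genes, for the 7 without CYS3 and for all genes, in 4 sets of libraries; bars are Wilson 95% intervals. The hotspot genes stand at 0% in the myc strains, and their high share in the competition libraries is not seen without CYS3. The CYS3 promoter peaks of the competition libraries all have their midpoint inside the coding region of its upstream neighbour DEP1.

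Among the genes of amino acid synthesis, ARG4 in the myc strains had narrow peaks at 0 h and peaks over nearly the whole gene at 2 h. ARG4 (R64 chromosome VIII, 140011 to 141402, minus strand) had no peak in the 4 SPS libraries and a peak at every SPM time in all 4 myc strains. At 0 h its widest peak measured 151 bp in Spp1-myc, 201 bp in Bre2-myc, 301 bp in the PHD-deleted and 551 bp in the CXXC-deleted strain. At 2 h the widths were 1451, 1501, 1451 and 1451 bp in the same order. Peaks at 2 h covered 98.3% to 99.6% of the coding region.

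At 4 h the ARG4 peak measured 1451 bp in Spp1-myc, 1501 bp in Bre2-myc, 1151 bp in the PHD-deleted and 1401 bp in the CXXC-deleted strain. At 6 h it was 1251, 701, 651 and 751 bp. The wide form was therefore narrower again by 6 h in 3 of the 4 strains and only slightly narrower in Spp1-myc. With 1 library at each time there is no replicate check in these strains.

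The medians of the H3 strains showed the same order at ARG4, with a larger spread and 1 series that ran the other way. In wild-type H3 replicate 2 the covered part fell from 43.2% at 0 h to 18.0% at 2 h, 10.8% at 4 h and 0% at 6 h. Every other replicate series rose from 0 h to 2 h. The covered part of the coding region was 10.8% at the lowest, 16.2% in the median and 43.2% at the highest of the 6 libraries at 0 h. At 2 h it was 18.0%, 92.2% and 100%, at 4 h 10.8%, 75.5% and 99.2%, and at 6 h 0%, 30.6% and 97.1%. The groups overlapped at every time. The mean was 21.6% ± 13.2 (SD, n = 6) at 0 h and 57.4% ± 37.8 (SD, n = 18) later, which did not pass (exact permutation p = 0.0392, Benjamini-Hochberg adjusted p = 0.140 over 3280 genes). Over all strains ARG4 had 17 peaks of at least 1000 bp, and 16 peaks reached past the coding start into the upstream gap, all with their midpoint inside the gene. None of the 18 competition libraries had an ARG4 peak.

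The coding end of DED81 faces the start of ARG4 across 491 bp. Both had a peak in 18 libraries, ARG4 alone in 21 and DED81 alone in 0. ARG4 had a peak in nearly all SPM libraries of the myc and H3 strains. HIS4 and BUD23, on another chromosome, were likewise never occupied without ARG4, so this nesting is not particular to DED81. DED81 lies on chromosome VIII, 141894 to 143558, minus strand. All of its 18 peaks were coding. It was occupied at 0 h in 4 of 4 myc strains, with widths of 301 to 451 bp, at 2 h in Bre2-myc and the CXXC-deleted strain (351 bp each), and at 4 and 6 h in none of them. Among the H3-strain libraries it was occupied in 5 of 6 libraries at 0 h, 4 at 2 h, 1 at 4 h and 2 at 6 h. Occupancy in 5 of 6 libraries at 0 h against 7 of 18 later did not pass (Fisher's exact test p = 0.155, adjusted p = 0.459).

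HIS4 (chromosome III, 65934 to 68333, minus strand) was a gene of the 2 h libraries. In the myc strains it had no peak in SPS, at 0 h or at 6 h. At 2 h its widest peak was 1051 bp in Spp1-myc, 1201 bp in Bre2-myc, 1651 bp in the PHD-deleted and 1101 bp in the CXXC-deleted strain. At 4 h it was 251 bp in Spp1-myc, 201 bp in Bre2-myc, absent in the PHD-deleted and 351 bp in the CXXC-deleted strain. All 4 strains thus had their widest HIS4 peak at 2 h, and a gene with a peak at 2 h and not at 0 h made up 3.87% of all genes in Spp1-myc, 6.21% in Bre2-myc, 3.95% in the PHD-deleted and 5.51% in the CXXC-deleted strain. The H3 strains had it in 1 of 6 libraries at 0 h, 4 at 2 h, 2 at 4 h and 0 at 6 h. All 20 HIS4 peaks were coding, with midpoints 138 to 2288 bp inside the gene. None was in a competition library.

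CYS3 (chromosome I, 130799 to 131983, plus strand) was the gene of the set that held both coding and promoter peaks in number. At 0 h it had a coding peak in all 4 myc strains, 501 bp wide in Spp1-myc, 601 bp in Bre2-myc, 551 bp in the PHD-deleted and 351 bp in the CXXC-deleted strain. No later library of these strains, and none in SPS, had a CYS3 peak of either kind. Genes occupied at 0 h and at no later time were 16.5% of all genes in Spp1-myc, 9.53% in Bre2-myc, 11% in the PHD-deleted and 9.31% in the CXXC-deleted strain.

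In the H3 strains CYS3 had a coding peak in 6 of 6 libraries at 0 h, 5 of 6 at 2 h, 3 of 6 at 4 h and 1 of 6 at 6 h. A promoter peak was present in 0 of 6 libraries at 0 h, 3 at 2 h, 4 at 4 h and 2 at 6 h. In wild-type H3 the promoter peaks were in replicate 2 at 2 h and both replicates at 4 h, in H3K4R in replicate 1 at 2 h, replicate 2 at 4 h and both at 6 h, and in H3R2A in replicate 2 at 2 h and replicate 1 at 4 h. Their midpoints lay 202 to 302 bp before the coding start, in the 311-bp gap behind DEP1, which encodes a subunit of a histone deacetylase complex, and they were 101 to 201 bp wide. Promoter occupancy in 9 of 18 later libraries against 0 of 6 at 0 h did not pass (Fisher's exact test p = 0.0519, adjusted p = 0.377 over 791 genes with a promoter peak, of which 0.506% were called).

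The widest CYS3 peaks were at 2 h in the mutant H3 strains. Coverage of the coding region at 2 h was 25.4% and 0% in the 2 wild-type libraries, 80.3% and 94.9% in H3K4R and 92.9% and 38.1% in H3R2A. Both mutants lay above both wild-type libraries at that time. Over all 4 times the mean was 10.6% ± 17.2 in wild type, 38.3% ± 34.0 in H3K4R and 32.8% ± 32.1 in H3R2A (SD, n = 8 each), and both comparisons share the wild-type libraries. Neither passed (exact permutation within time p = 0.0417, adjusted p = 0.382 for H3K4R; p = 0.0185, adjusted p = 0.535 for H3R2A).

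In the competition libraries CYS3 had promoter peaks and no coding peak. They were present in 5 of 8 Spp1-GFP and 6 of 10 Spp1-myc libraries, with midpoints 331 to 432 bp before the start. All 11 lay over the end of the DEP1 coding region and none touched the CYS3 coding region, so under the rule each could be given to either gene. Their midpoints stood farther upstream than those of the 9 promoter peaks of the H3 strains, with no overlap of the midpoint ranges. The peaks themselves overlapped in extent. For example, Spp1-GFP replicate 2 at 4.5 h had a peak from 130293 to 130543, and H3R2A replicate 1 at 4 h from 130418 to 130618. Most of the H3-strain promoter peaks also reached into the DEP1 coding region. CYS3 was 1 of 3 genes (0.05% of all) that had a promoter peak in at least as many competition libraries as CYS3. In 1 of 8 groups of 2 libraries both replicates had the peak and in 7 only 1 did. For 2 of these 7, Spp1-myc at 5 and 6.5 h, replicate 1 had a peak just outside the window, with midpoints 502 and 527 bp before the start. In the H3 strains a CYS3 promoter peak was in both replicates of 2 groups and in 1 replicate of 5 groups. Counting either kind of peak, CYS3 was occupied there in both replicates of 10 groups and in neither of the other two, and in wild type at 2 h and H3K4R at 4 h one replicate had a coding and the other a promoter peak.

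**Figure D3:**
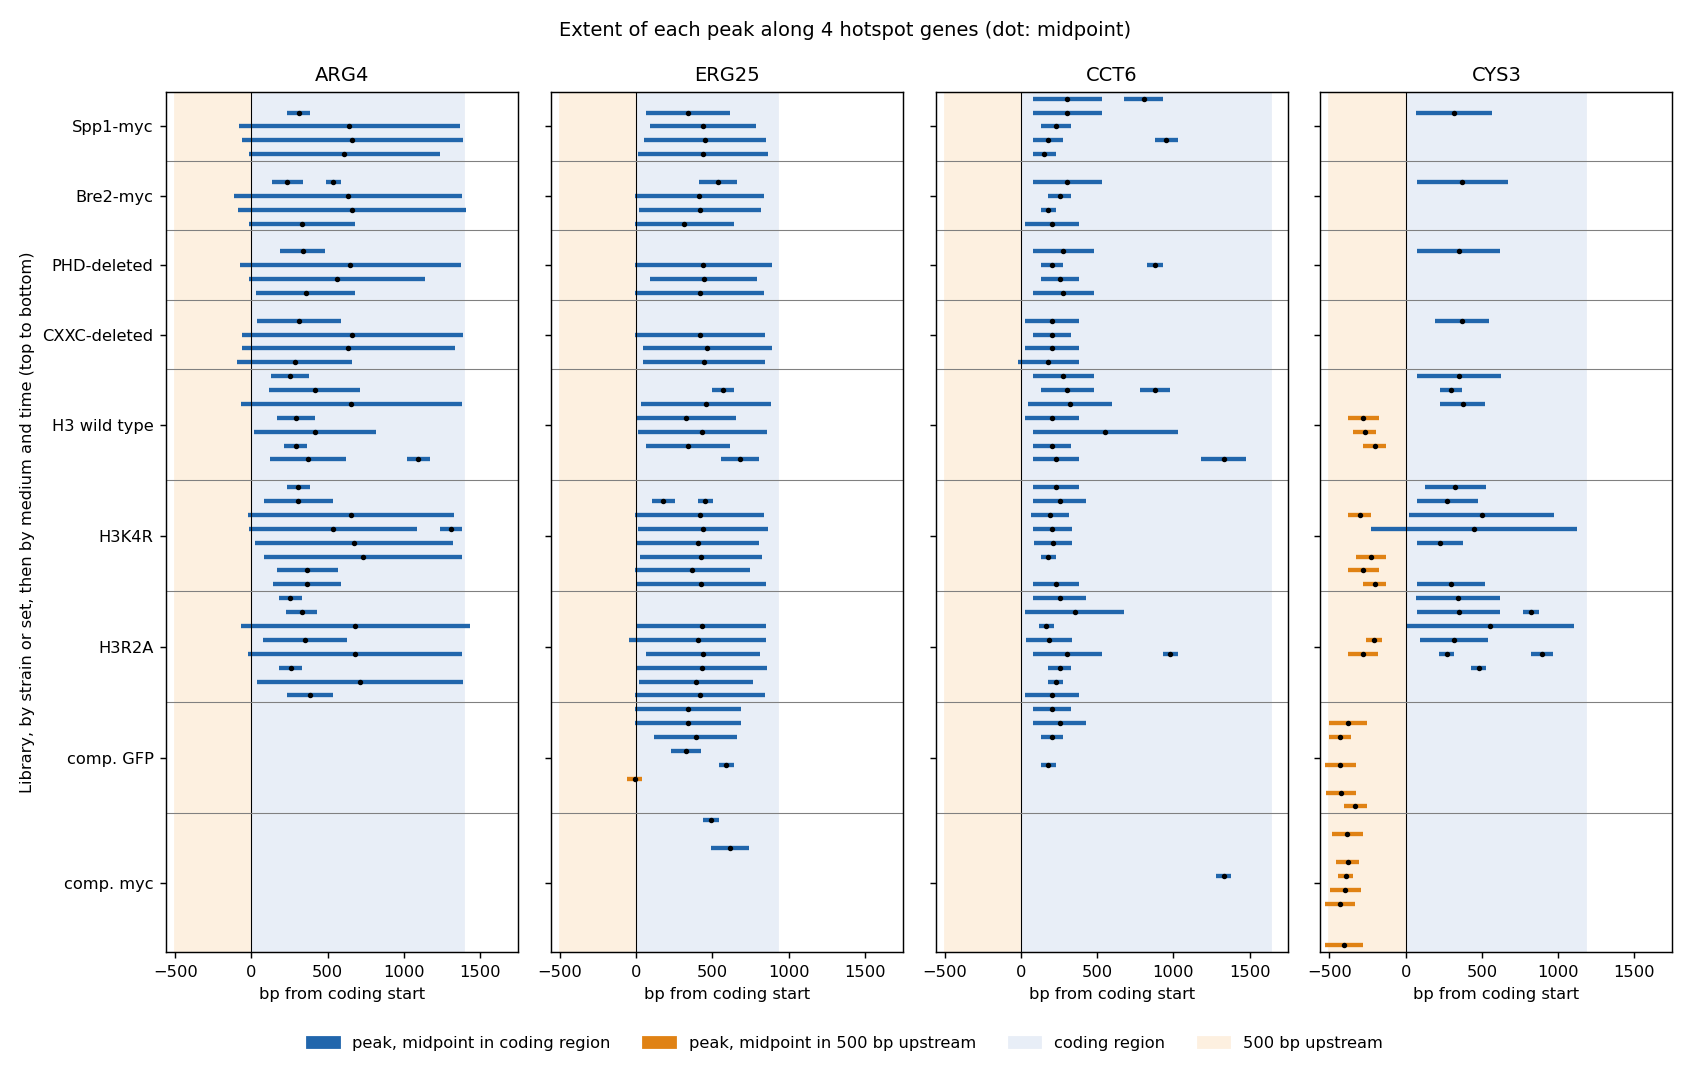
Extent of every peak assigned to ARG4, ERG25, CCT6 and CYS3 as bars against distance from the coding start in bp (x axis), 1 row per library, dots at midpoints; within a strain or set rows run from SPS (myc strains) to the latest time. ARG4 and ERG25 bars span most of the gene in many but not all later libraries. Most CCT6 bars stay near its start, and CYS3 bars lie inside the gene or upstream of it.

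ERG25 (chromosome VII, 610564 to 611493, plus strand) was the 1 gene of the set whose change over time passed a test. It had no peak by the rule in SPS. At 0 h in the myc strains its peak was 551 bp wide in Spp1-myc and 251 bp in Bre2-myc, and absent in both domain-deleted strains. At 2 h it was 701 bp in Spp1-myc, 851 bp in Bre2-myc, 901 bp in the PHD-deleted and 851 bp in the CXXC-deleted strain. All 12 libraries from 2 to 6 h had it, at 651 to 901 bp.

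In the H3 strains ERG25 coverage at 0 h was 16.2% in 1 wild-type library and 27.1% in 1 H3K4R library and 0% in the other 4. At 2 h the lowest, median and highest of the 6 libraries were 70.0%, 91.5% and 91.9%, at 4 h 59.2%, 86.1% and 91.5%, and at 6 h 0%, 80.4% and 91.5%. Every library at 2 and 4 h stood above all 0 h libraries, and the 2 wild-type libraries at 6 h (27.0% and 0%) did not. The mean rose from 7.22% ± 11.7 (SD, n = 6) to 77.3% ± 25.3 (SD, n = 18), with exact permutation within strain p = 0.000137 and Benjamini-Hochberg adjusted p = 0.00380. Of 3280 genes tested 16.4% were called, 15.2% as higher at 0 h and 1.19%, ERG25 among them, as lower. The adjusted p lay between 0.00254 and 0.0220 in the 10 other settings tried. This measure of coverage was added after the data were seen.

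By presence alone ERG25 went from 2 of 6 libraries at 0 h to 17 of 18 later, which did not pass (Fisher's exact test p = 0.00649, adjusted p = 0.0758; 7.4% of 3501 genes called). The 1 later library without it was the short wild-type list at 6 h. Without the wild-type H3 replicate 2 series ERG25 passed (1 of 5 against 15 of 15, adjusted p = 0.0309 in the exact test). That series held the later library without a peak and a 0 h library with a peak. Without any other single replicate series ERG25 did not pass, and it passed in 3 of 18 alternatives. No other gene of the set passed in this comparison by either measure.

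Upstream of ERG25, all 4 SPS libraries shared a peak that the rule left out. Its midpoint lay 527 to 535 bp before the coding start, 27 to 35 bp outside the window, and it was 351 bp wide in Spp1-myc, 401 bp in Bre2-myc, 301 bp in the PHD-deleted and 401 bp in the CXXC-deleted strain. None of the 16 SPM libraries of these strains had a peak there. Of the H3-strain libraries 7 had a narrower one, 101 to 151 bp wide, 613 to 722 bp before the start. With a window of 1000 bp ERG25 had a promoter peak in 4 of 4 SPS libraries, as did 8.03% of all genes (482), and none of the other 7 genes did. ERG25 has a long upstream gap, 1462 bp to SPR3, a sporulation gene, with the small nucleolar RNA gene SNR48 between them, ending 867 bp away.

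In the competition experiment ERG25 was covered in Spp1-GFP for 74.2% and 74.3% at 4.5 h, 59.2% and 21.6% at 5 h and 10.9% and 4.5% at 5.5 h. Spp1-myc had 10.9% and 0% at 4.5 h, 27.0% and 0% at 5 h and 0% in both at 5.5 h. Spp1-GFP was above Spp1-myc at 4.5 h and at 5.5 h, the ranges overlapped at 5 h, and neither set had an ERG25 peak at 6 or 6.5 h. Occupancy in 6 of 6 against 2 of 6 libraries did not pass (Fisher's exact test p = 0.0606, adjusted p = 0.811, 0% of 870 genes called and 3.33%, or 29 genes, at an unadjusted p under 0.05). Mean coverage of 40.8% ± 32.1 against 6.31% ± 11.02 (SD, n = 6 each) did not pass either (exact permutation p = 0.037, adjusted p = 0.597), in a design whose smallest p is 0.00926. By coverage 0% of 742 genes were called, and 6.2%, or 46 genes, had an unadjusted p under 0.05. The Spp1-GFP lists from 4.5 to 5.5 h held 155 to 705 peaks and the Spp1-myc lists 96 to 166, and the part of list length in these values was not tested.

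**Figure D4:**
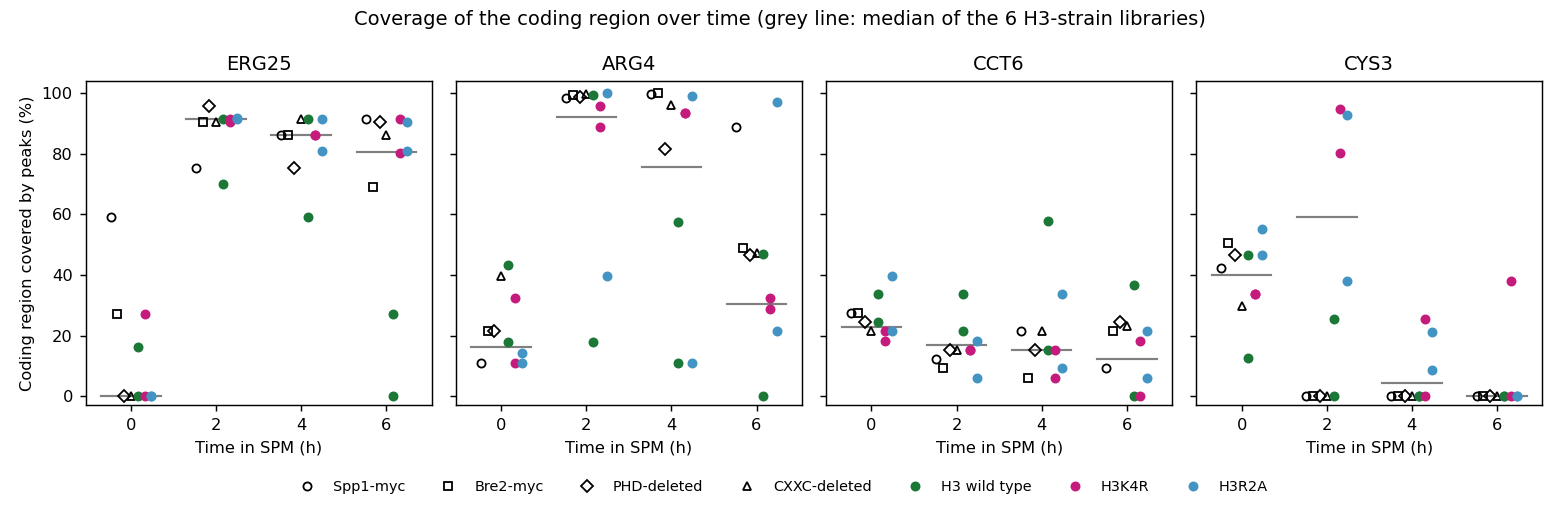
Percent of the coding region covered by peaks (y axis) against hours in SPM (x axis) for ERG25, ARG4, CCT6 and CYS3, 1 point per library of the myc strains (open symbols) and H3 strains (filled circles); grey lines are medians of the 6 H3-strain libraries. ERG25 stands at 0% to 27.1% at 0 h in the H3 strains and at a median of 91.5% at 2 h, while CCT6 stays at medians of 12.2% to 22.9%.

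CCT6 (chromosome IV, 836421 to 838061, plus strand) had peaks near its start in nearly all SPM libraries of the myc and H3 strains. It was the only one of the 8 with a peak in SPS, in Spp1-myc, and it was occupied in 16 of 16 SPM libraries of the myc strains and 22 of 24 of the H3 strains. Its median coverage in the H3 strains was 22.9% at 0 h, 16.8% at 2 h, 15.3% at 4 h and 12.2% at 6 h, with overlapping ranges. The median midpoint lay 229 bp inside the gene, and 42 of its 50 peaks had their midpoint in the first 500 bp. All 50 were coding. In the competition experiment it was occupied in 4 of 6 Spp1-GFP and 1 of 6 Spp1-myc libraries from 4.5 to 5.5 h, which did not pass (Fisher's exact test p = 0.242, adjusted p = 0.860).

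Genes occupied at 0, 2, 4 and 6 h alike were 6.18% of all genes in Spp1-myc, 5.35% in Bre2-myc, 4.92% in the PHD-deleted and 7.01% in the CXXC-deleted strain. ARG4 and CCT6 belonged to this class in all 4 strains, and ERG25 in Spp1-myc and Bre2-myc. In both domain-deleted strains ERG25 lacked the 0 h peak, a difference between single libraries that has no replicate check.

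BUD23 and ARE1 flank a hotspot in the 383-bp gap between their starts, which point away from each other on chromosome III (BUD23 210718 to 211545, minus strand; ARE1 211929 to 213761, plus strand). BUD23 had 5 peaks. Of these, 4 were at 0 h, in Spp1-myc, Bre2-myc, wild-type H3 replicate 1 and H3R2A replicate 1, and 1 at 2 h in H3K4R replicate 2. In the same order these lists held 2119, 1371, 2064, 1647 and 2054 peaks, with 21.0% to 34.0% of all genes occupied. The part of list length in the BUD23 pattern was not tested. The BUD23 peaks were 151 to 251 bp wide with midpoints 118 to 184 bp inside the gene. The same 5 peaks lay 502 to 568 bp before the start of ARE1, just outside its window, so ARE1 was not occupied in any library. No replicate pair agreed on a BUD23 peak, and no peak in any library had its midpoint in the gap itself.

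Between the H3 strains, no gene of the set passed a test, and none of the genes tested did. For H3K4R against wild type 0% of 3382 genes were called by Fisher's exact test (197, or 5.82%, at an unadjusted p under 0.05) and 0% of 3170 by coverage (355, or 11.2%, unadjusted). HIS4 was occupied in 5 of 8 H3K4R and 1 of 8 wild-type libraries (p = 0.119, adjusted p = 1), with mean coverage of 8.36% ± 12.0 and 1.05% ± 2.96 (SD, n = 8 each, exact permutation p = 0.0278, adjusted p = 0.313). DED81 was occupied in 6 of 8 and 3 of 8, CYS3 in 8 and 6, ARG4 in 8 and 7, ERG25 in 7 and 6, and CCT6 in 7 and 7. BUD23 and ARE1 had equal counts. Under other settings DED81 (each list cut to its better-scoring part) was lower in H3K4R by 12.5 percentage points. BUD23 and CCT6, equal in the main test, ranged from -12.5 to 12.5 percentage points. They were lower in H3K4R without H3K4R replicate 2 or without wild-type replicate 2, and higher without replicate 1 of either strain.

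For H3R2A against the same wild-type libraries 0% of 3183 genes were called (87, or 2.73%, unadjusted) and 0% of 2986 by coverage (202, or 6.76%, unadjusted). HIS4 was occupied in 1 of 8 in each strain and DED81 in 3 of 8 in each. The single HIS4 library of H3R2A, replicate 1 at 2 h, had 81.3% of the gene covered, more than any H3K4R library, the highest of which had 35.5%. In the H3 strains a pair of replicates that had a peak at one of the 8 genes in at least 1 library had it in both in 71.0% of cases, beside 47.4% over all genes. By gene this share ran from 0% for BUD23, 33.3% for DED81 and 40% for HIS4 to 100% for CYS3. In the competition libraries it was lower than over all genes, 29.4% beside 38.7%. How far it follows from the number of libraries in which a gene was occupied was not tested.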

How the data were processed

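Per the labels, chromatin of sporulating SK1 diploids was crosslinked with formaldehyde, sonicated and precipitated with antibodies to myc, HA or GFP. Per the submitters' processing notes, BWA and deepTools were used with build sacCer3; for the peak caller, its name is not given in the sources used here. Of 64 samples, 62 have a peak list deposited by the authors, giving position, width and a score (a fraction from 0.5 to 1), all as the authors' own values. The input and the untagged sample were not analysed here. Sample descriptions call Spp1 in the H3 strains myc-tagged; genotype and antibody (HA) were followed.

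Of 56230 peaks, 53443 lay on the 16 nuclear chromosomes and were assigned by midpoint to RefSeq R64 genes. Occupied libraries were compared by two-sided Fisher's exact test, and percent of the coding region covered by exact permutation within time or strain (added after seeing the data), both with Benjamini-Hochberg adjustment over all genes with a value, threshold 0.05. The comparisons were H3K4R and H3R2A with wild type (8 against 8), 0 h with later times (6 against 18) and Spp1-GFP with Spp1-myc (6 against 6). Scripts were tested on simulated data (Python 3.11.15, SciPy 1.17.1). All 8 genes are named in each comparison, with their nearest neighbours and 5 genes at other hotspots; for each gene occupied in at least 8 libraries, the 2 genes with the most similar occupancy (Jaccard index, over 10000 bp away) are named. Members and lists were chosen with earlier results of these data known. Alternatives varied the window (250 and 1000 bp), overlap, score and list length, the replicates and the replicate block.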

Additional observations from a re-analysis of the deposited data

Results flagged for a closer look

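A signal lay outside the comparisons of genes: 2787 peaks were listed on chrXVII, a name that no gene of the reference table carries. They made up a median of 41.8% of each competition list and 3.87% of each other list, and their part in the low counts at the hotspot genes in the competition libraries was not tested.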

How the results depend on the processing

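The counts of genes called were 0 in the H3K4R, H3R2A and competition comparisons under every alternative run. For 0 h against later times, 259 genes by occupancy became 4 with promoter peaks only, 160 with each list cut to its better-scoring part, 98 with lists of 642 peaks, and 107 to 147 without 1 replicate series; the highest was 300, with a window of 1000 bp. By coverage, 539 became 279 with each list cut to its better-scoring part, 227 with lists of 642 peaks, 690 over genes covered in at least 3 libraries, and 354 to 565 without 1 replicate series (354 without H3R2A replicate 2). The promoter share of 9.63% became 2.48% with a window of 250 bp, 21.5% with 1000 bp, 14.7% by any overlap and 15.4% with lists of 87 peaks, and 6.54% to 9.15% without replicate 1 or 2; many peaks tie at a score of 1, so the shortest lists fall among ties. ERG25 at 0 h against later by occupancy passed with each list cut to its better-scoring part (Fisher's exact test, adjusted p = 0.0104) and with lists of equal length (0.0120).

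Same-numbered replicates shared little deviation in most pairs, with correlations from -0.106 to 0.243. The highest were 0.243 at 0 h and 0.140 at 4 h, both for H3R2A with wild type. These values do not settle whether the numbers pair the libraries, and the main tests did not pair them. With the replicate block 73 genes were called by occupancy for 0 h against later times, beside 259 in the main test.

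Differences in percent of libraries or percentage points of coverage changed sign 22 times, none of them called. With each list cut to its better-scoring part, occupancy changed sign to -12.5 for DED81 in H3K4R and for ARG4 and CCT6 in H3R2A, and for 0 h minus later to -5.56 for BUD23, -44.4 for ARG4 and 5.56 for HIS4. Coverage changed to -3.39 for DED81 in H3K4R and -1.35 for BUD23 at 0 h. With lists of equal length the values were -12.5 (ARG4, H3R2A), -55.6 (ARG4, 0 h), -0.75 (DED81 coverage, H3K4R) and 1.16 (CCT6 coverage, H3R2A). CYS3 at 0 h was -50 with promoter peaks only. Without 1 replicate series, coverage ranged from -2.28 to 3.79 for BUD23 in H3K4R and in H3R2A, and in H3R2A from -15.1 to 40.1 for ARG4, -1.05 to 19.3 for HIS4 and -18.7 to 1.91 for CCT6. Occupancy ranged from -50 to 16.7 for CYS3 in the competition. The cause was not tested. Depth is unknown, and a gene without a listed peak may lie under the caller's threshold.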

Other observations

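The genes elsewhere in the genome most like each hotspot gene in their occupied libraries were ranked by the Jaccard index (libraries occupied by both over libraries occupied by either, of 62). ARG4 was most like ARG1, which encodes argininosuccinate synthase, the enzyme before ARG4 in arginine synthesis, at 0.974 (38 of 39 libraries), and ADH2, an alcohol dehydrogenase gene repressed by glucose, at 0.951. CCT6 was most like RPN6, a proteasome subunit gene, at 0.913, and HHF1, a histone H4 gene, at 0.911. ERG25 was most like MIX17 at 0.804 and INO1, encoding inositol phosphate synthase, at 0.800.

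HIS4 was most like URA10 at 0.786 and TRP3 at 0.765, genes of pyrimidine and tryptophan synthesis. DED81 was most like RPS21A, a ribosomal protein gene, at 0.778 and TIF34, a translation initiation factor gene, at 0.750. CYS3 had the least similar matches, PMT2 at 0.698 and MET4, the activator of sulfur amino acid genes, at 0.634. These likenesses are descriptions over libraries that share strains and list lengths.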
